A study of Mus musculus with 6 samples.

Results

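Fatty acid oxidation genes were described here as a list of 39 mouse genes that cover fatty acid uptake, transport into mitochondria, beta-oxidation and the PPAR alpha and PGC-1 regulatory genes with their targets. The members were chosen by gene symbol, with no measured value in the rule, and all 39 were found among the 46072 genes of the separate table of each library. The tables hold 21517 protein-coding genes, of which 6880 had a mean FPKM (fragments counted per gene and scaled to transcript length and library size) of at least 1 over the 6 libraries and were compared. Of the members, 38 passed that minimum. The remaining one was Angptl4, an inhibitor of lipoprotein lipase, which was at 0, 0.344 and 0.158 FPKM with IgG and 1.04, 0.705 and 0 FPKM with anti-EZH2, a mean of 0.37 FPKM.

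The study profiled RNA that was precipitated from mouse left ventricle with an antibody to EZH2, the histone H3K27 methyltransferase of Polycomb repressive complex 2, or with normal IgG. Male mice aged 10 weeks were assigned to Sham, AngII 4 h or AngII 24 h, with 2 mice in each group. Angiotensin II (AngII), a hormone that raises blood pressure and drives cardiac hypertrophy, was delivered by a subcutaneous osmotic minipump at 1 mg/kg/min, as the labels give the rate, for 4 or 24 h, and Sham mice had saline, although their treatment label reads Untreated. From each group 2 RIP products were mixed into a single library per antibody, which gave 6 libraries and no replicates. The strain label is C57BL/6 for 4 libraries, C57BL/7 for the AngII 4 h anti-EZH2 library and C57BL/8 for the AngII 24 h anti-EZH2 library, and in the AngII groups the strain label and the antibody cannot be told apart. Nor can the strain label and the AngII time in any comparison between anti-EZH2 libraries, whose 3 labels all differ. The hour of collection and the time since the last meal are not given in the sources used here, and food was freely available.

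The adult heart draws most of its ATP from fatty acids. Fatty acids are taken up, activated to acyl-CoA, carried across the inner mitochondrial membrane as carnitine esters and shortened in repeated cycles of dehydrogenation, hydration, a second dehydrogenation and thiolysis, each cycle releasing acetyl-CoA and passing electrons to the respiratory chain. The nuclear receptor PPAR alpha, the orphan receptor ERR alpha and their PGC-1 coactivators induce these genes together, and the pyruvate dehydrogenase kinases set how far glucose carbon enters the same acetyl-CoA pool.

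In these data most members stood above the median of all genes compared at AngII 4 h, by 1.40-fold in the median with anti-EZH2 and 1.16-fold with IgG. The 8 cardiomyocyte markers did so as well. Their median log2 differences were 0.29 with IgG and 0.33 with anti-EZH2, beside 0.22 and 0.49 for the members. With those markers as the reference, the members' median with IgG changed sign. As a list the members lay near the median gene when the antibodies were compared. The largest differences among the members at AngII 4 h with IgG were those of Pdk4 and Ppargc1a, and the largest between the antibodies was that of Ppara. Pdk4, a pyruvate dehydrogenase kinase, was 6.21-fold higher at AngII 4 h than in Sham with IgG and 4.03-fold higher with anti-EZH2, relative to the median gene. Ppargc1a, the PGC-1 alpha coactivator, was 3.02-fold and 1.86-fold higher, and with anti-EZH2 Eci2 and Plin5 stood further above the median gene than Ppargc1a. Ppara, which encodes PPAR alpha, was higher with anti-EZH2 than with IgG in every group, by 3.40-fold without AngII, 3.41-fold after 4 h and 4.00-fold after 24 h. Its deposited intervals overlapped in every group, however, and it did not pass limma over the 3 groups (adjusted p = 0.685).

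The sequenced depth of the libraries is not given in the sources used here. From the steps between the low values of single-transcript genes it was inferred at 3816794 to 5167959 fragments in the IgG libraries and 4761905 to 7905138 in the anti-EZH2 libraries, with 68.5 to 73.8% of the low values within 0.1 of a whole fragment when a fragment length of 200 nt was assumed. The share of all FPKM on mitochondrially encoded genes was 6.72 to 13.9% in 5 libraries and 31.3% in the AngII 24 h anti-EZH2 library, which stood apart. All 8 cardiomyocyte markers were among the genes tested, and their summed level was 5418 to 9599 FPKM, against 39.8 to 66.3 FPKM for 8 endothelial, 58.9 to 82.8 FPKM for 8 fibroblast, 18.1 to 33.3 FPKM for 8 leukocyte and 587 to 1454 FPKM for 5 erythroid markers. Of 8 adipocyte markers only Fabp4, which endothelial cells also express, was tested, with 38.7 to 70.6 FPKM for the whole list, and Plin1, Retn, Lep and Ucp1 were listed at 0 in every library. Fewer cells of a type and less RNA per cell cannot be told apart in these whole-ventricle libraries.

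Differences are given as log2 of the ratio of FPKM + 0.5 between 2 libraries, minus the median of that difference over the 6880 genes tested, so that 0 is the median gene. This centring matters here, because the median gene itself was 1.15-fold as high as in Sham at AngII 4 h and 1.17-fold at AngII 24 h with IgG, and 1.27-fold and 0.995-fold with anti-EZH2. Past 2-fold means a relative difference of at least 1 in either direction. With a single library in each cell of the design no test of a single difference is possible, and the spread between hearts is unknown. The IgG and the anti-EZH2 pair are 2 precipitations from the hearts of the same groups and not biological replicates. Values are listed with Sham first, then the 4 h and the 24 h group.

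**Figure D1:**
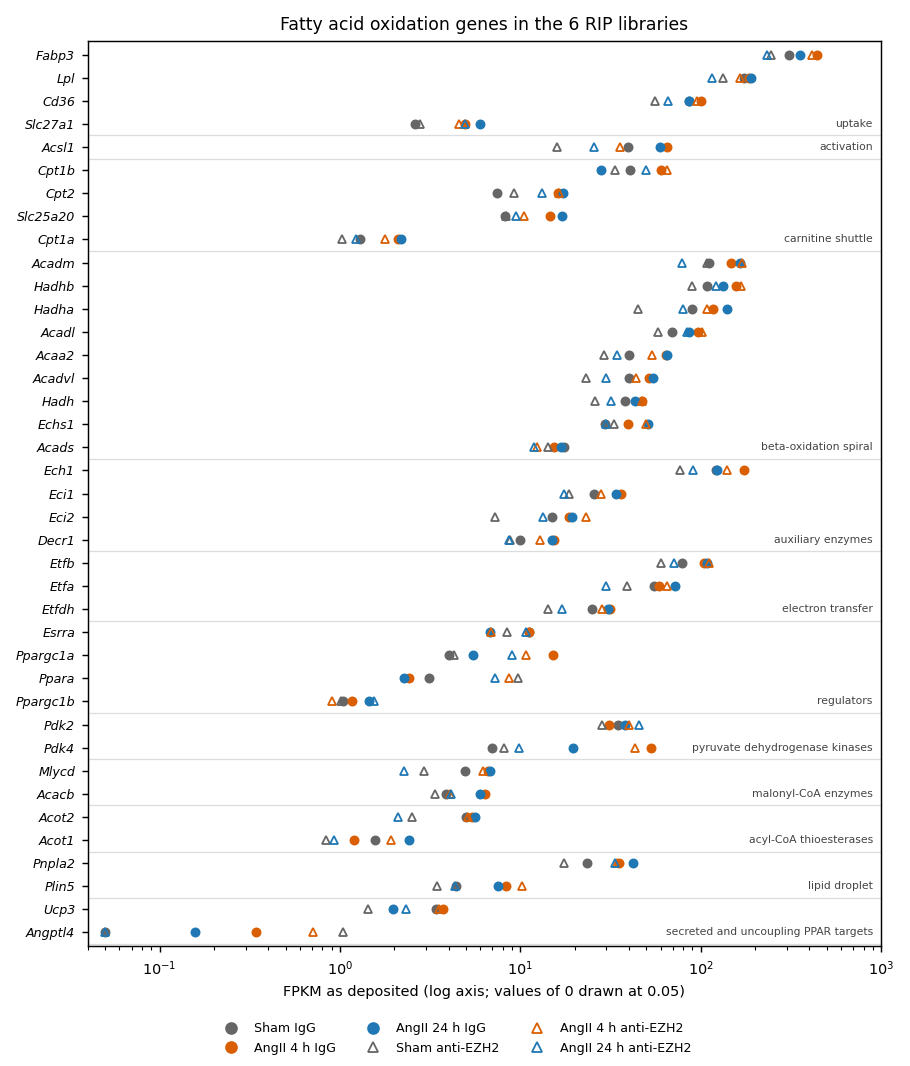
FPKM of the 39 genes in the 6 libraries on a log axis, grouped by role, with filled circles for IgG and open triangles for anti-EZH2 and a colour for each treatment group. Fabp3 lies between 232 and 442 FPKM and the regulators lie at 15.2 FPKM or less, and Pdk4 and Ppargc1a have their AngII 4 h points to the right of the others.

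The members' summed level was 1651, 2244 and 2063 FPKM with IgG and 1252, 2148 and 1400 FPKM with anti-EZH2. This was 1.39 to 1.77% of the FPKM of all protein-coding genes in each library. The levels ran from 0.37 FPKM for Angptl4 to 333 FPKM for Fabp3, as means over the 6 libraries, and the enzymes of the beta-oxidation spiral (14.7 to 130.1 FPKM) were above the regulators (1.18 to 9.22 FPKM).

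AngII for 4 h was compared with Sham to ask which members stood above or below the median gene early in the response. With IgG, 28 of 38 members were above the median gene and their median difference was 0.22. With anti-EZH2, 31 of 38 were above it and the median was 0.49. Past 2-fold were 2 members higher and 0 lower with IgG, beside 9.69% of all genes higher and 11.1% lower. With anti-EZH2 they were 3 higher and 0 lower, beside 7.92% and 10.4% of all genes. Of these 3, Pdk4 was also past 2-fold in the table of the whole series, where Eci2 was at 0.56 and Plin5 at 0.85. The same direction with both antibodies was found for 26 members above the median gene, beside 27.8% of all genes, and for 5 below it (Acads, Lpl, Ppara, Ppargc1b and Esrra), again beside 27.8%. Past 2-fold and higher with both antibodies was Pdk4 alone, 1 of 38 members beside 1.35% of all genes, and 0 members were past 2-fold lower in both, beside 2.18%. At 1.5-fold the members higher with both antibodies were Pdk4, Ppargc1a and Plin5, beside 4.81% of all genes. The 8 cardiomyocyte markers had the same direction, all 8 above the median gene with both antibodies, with medians of 0.29 with IgG and 0.33 with anti-EZH2, while the fibroblast markers had medians of -0.92 and -0.64 and the 3 leukocyte markers tested had -0.72 and -0.98. The endothelial markers had medians of -0.67 and 0.04 and the erythroid markers -0.68 and -0.59. When differences were centred on the cardiomyocyte markers instead of the median gene, the members' median was -0.077 with IgG and 0.16 with anti-EZH2, so the direction of the list with IgG depended on the reference. The part of cell composition in the list's difference was not tested beyond this.

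**Figure D2:**
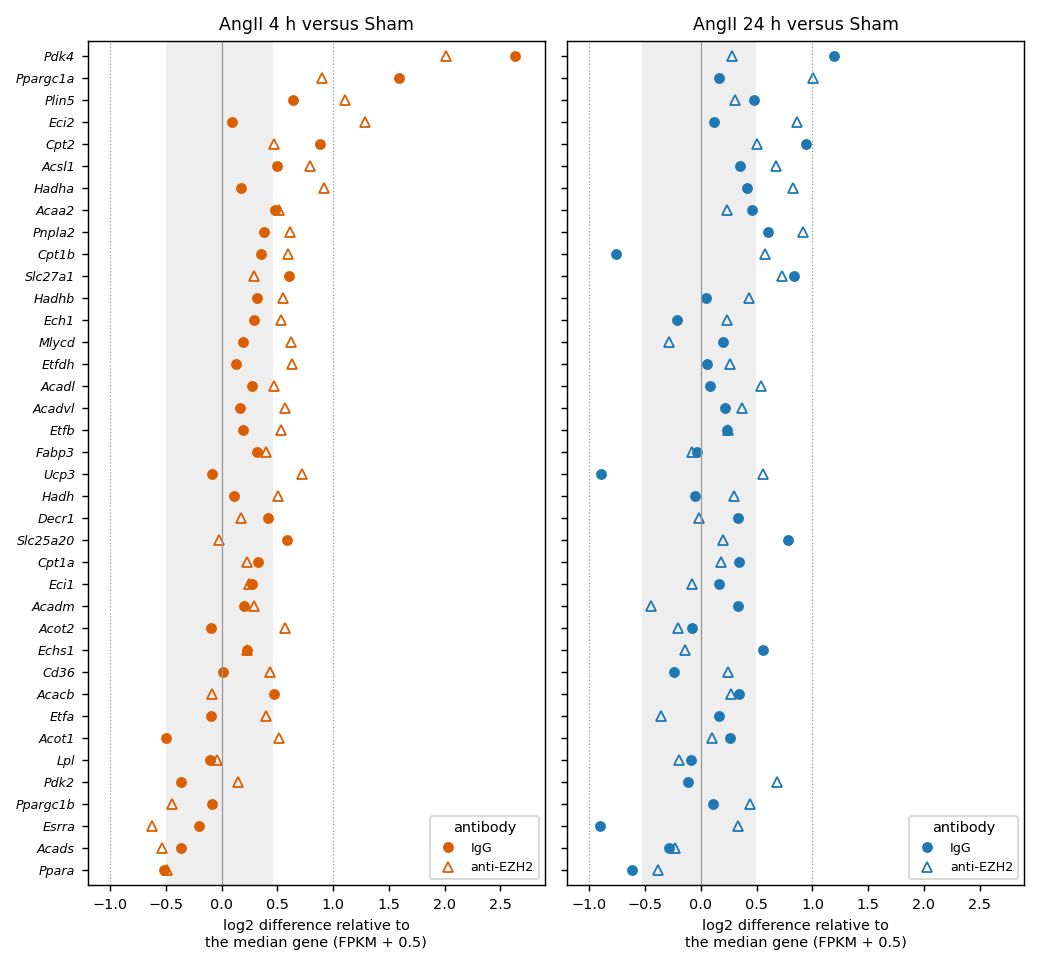
Relative log2 difference of 38 genes at AngII 4 h (left) and AngII 24 h (right) against Sham, with IgG (filled circles) and anti-EZH2 (open triangles). The grey band holds the middle of all genes tested with IgG, from their lower to their upper quartile, dotted lines mark 2-fold, and Pdk4 lies at 2.63 and 2.01 at 4 h and at 1.19 and 0.28 at 24 h.

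Pdk4 was the member with the largest difference at 4 h with each antibody. Its kinase phosphorylates and shuts the pyruvate dehydrogenase complex, which spares glucose when fatty acids are burned. It was at 7.00, 53.0 and 19.6 FPKM with IgG and 8.09, 43.3 and 9.87 FPKM with anti-EZH2. The AngII 4 h libraries were above the other 4 with both antibodies, and the AngII 24 h libraries lay between. The relative difference at 4 h was 2.63 with IgG and 2.01 with anti-EZH2, which ranked 37th and 74th from the top of 6880 genes. The deposited intervals did not overlap, at 4.08 to 10.1 in Sham and 47.7 to 58.5 at AngII 4 h with IgG and at 3.85 to 12.4 and 37.2 to 49.5 with anti-EZH2. These intervals cover the estimation of abundance within a library and not the spread between mice. Pdk2, the constitutive kinase of the family, was at 34.9, 31.1 and 37.8 FPKM with IgG and 28.3, 39.9 and 45.4 FPKM with anti-EZH2. Its differences at 4 h were -0.37 with IgG and 0.14 with anti-EZH2, so the pair of kinases differed in how far they moved from the median gene.

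Ppargc1a encodes the coactivator that PPAR alpha and ERR alpha use to induce oxidation and mitochondrial biogenesis genes. It was at 4.01, 15.2 and 5.44 FPKM with IgG and 4.27, 10.7 and 9.01 FPKM with anti-EZH2. The AngII 4 h library was the highest of its antibody in both series, and with anti-EZH2 the AngII 24 h library was the next highest. The relative difference at 4 h was 1.59 with IgG and 0.90 with anti-EZH2, and the intervals of Sham and AngII 4 h did not overlap with either antibody. Its paralogue Ppargc1b was at 1.03, 1.16 and 1.44 FPKM with IgG and 1.01, 0.907 and 1.54 FPKM with anti-EZH2, near the minimum level for comparison, with differences of -0.09 with IgG and -0.44 with anti-EZH2 at 4 h. Esrra, which encodes ERR alpha, was at 11.2, 11.2 and 6.83 FPKM with IgG and 8.48, 6.90 and 10.8 FPKM with anti-EZH2, and its differences at 4 h were -0.20 with IgG and -0.62 with anti-EZH2. Ppara, the receptor that fatty acids activate, was at 3.10, 2.40 and 2.26 FPKM with IgG and 9.66, 8.65 and 7.26 FPKM with anti-EZH2, with differences of -0.51 with IgG and -0.49 with anti-EZH2. The coactivator was therefore the regulator that was higher at 4 h, and the other 3 regulators were below the median gene with both antibodies. The intervals of Sham and AngII 4 h overlapped for these 3 with each antibody, so a fall in them was not shown.

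The promoter sequences of the 3 regulatory members that the results turn on, and of Hadhb, whose start lies head to head with that of Hadha, are shown as RefSeq gives them on GRCm38.p6, from 250 bases before the transcription start to 50 bases from it on, 5′ to 3′ on the gene's strand. Capitals mark the letters AGGTCA (the nuclear receptor core site), TGACG (the core of the cAMP response element), CCAAT (the CCAAT box) and GGGCGG (the GC box) on either strand.
Pdk4 chr6:5496229-5496528 (- strand): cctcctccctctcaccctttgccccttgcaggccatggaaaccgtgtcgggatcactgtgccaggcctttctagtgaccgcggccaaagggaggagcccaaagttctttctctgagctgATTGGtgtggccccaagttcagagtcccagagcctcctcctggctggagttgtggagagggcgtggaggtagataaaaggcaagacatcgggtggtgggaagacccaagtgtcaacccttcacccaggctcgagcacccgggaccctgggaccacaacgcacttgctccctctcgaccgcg
Ppargc1a chr5:51567676-51567975 (- strand): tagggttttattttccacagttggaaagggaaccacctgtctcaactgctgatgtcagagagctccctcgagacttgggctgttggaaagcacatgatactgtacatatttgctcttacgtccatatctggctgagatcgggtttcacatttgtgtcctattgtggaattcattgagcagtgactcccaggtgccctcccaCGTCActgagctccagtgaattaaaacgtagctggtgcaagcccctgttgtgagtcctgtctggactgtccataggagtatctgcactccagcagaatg
Ppara chr15:85735526-85735825 (+ strand): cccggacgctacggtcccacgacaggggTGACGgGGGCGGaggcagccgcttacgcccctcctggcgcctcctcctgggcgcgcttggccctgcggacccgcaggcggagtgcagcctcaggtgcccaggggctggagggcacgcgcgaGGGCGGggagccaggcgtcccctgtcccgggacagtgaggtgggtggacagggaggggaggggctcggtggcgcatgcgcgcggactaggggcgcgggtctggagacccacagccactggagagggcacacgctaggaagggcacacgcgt
Hadhb chr5:30155003-30155302 (+ strand): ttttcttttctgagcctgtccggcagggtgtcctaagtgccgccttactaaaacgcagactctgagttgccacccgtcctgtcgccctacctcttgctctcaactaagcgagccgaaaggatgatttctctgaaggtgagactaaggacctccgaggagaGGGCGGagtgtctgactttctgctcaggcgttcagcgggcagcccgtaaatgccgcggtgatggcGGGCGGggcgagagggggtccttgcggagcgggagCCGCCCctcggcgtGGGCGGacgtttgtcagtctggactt

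The Pdk4 window held 1 CCAAT box, at -131 from the start, and none of the other 3 motifs. The Ppargc1a window held 1 TGACG, at -49, and the Ppara window held 1 TGACG and 2 GC boxes. The Hadhb window held 4 GC boxes, and Hadhb lies head to head with Hadha, the gene of its partner subunit, with 86 bases between the annotated starts on chromosome 5. A promoter window was found for 33 members, with 38 windows in all. GGGCGG was in 63.2% of them and in 35.7% of the 32851 windows of all genes, CCAAT was in 44.7% and 37.4%, TGACG in 23.7% and 20.8%, and AGGTCA in 23.7% and 16.3%. The full DR1 element, a direct repeat of AGGTCA with 1 base between, the ERR element TCAAGGTCA, the full cAMP response element TGACGTCA and the forkhead element GTAAACA were in 0 of the 38 windows, beside 0.0396%, 0.423%, 1.79% and 3.65% of all windows. AGGTCA is part of both longer receptor elements and TGACG is part of TGACGTCA, so these counts overlap. A match describes letters in this window and not a bound site.

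**Figure D3:**
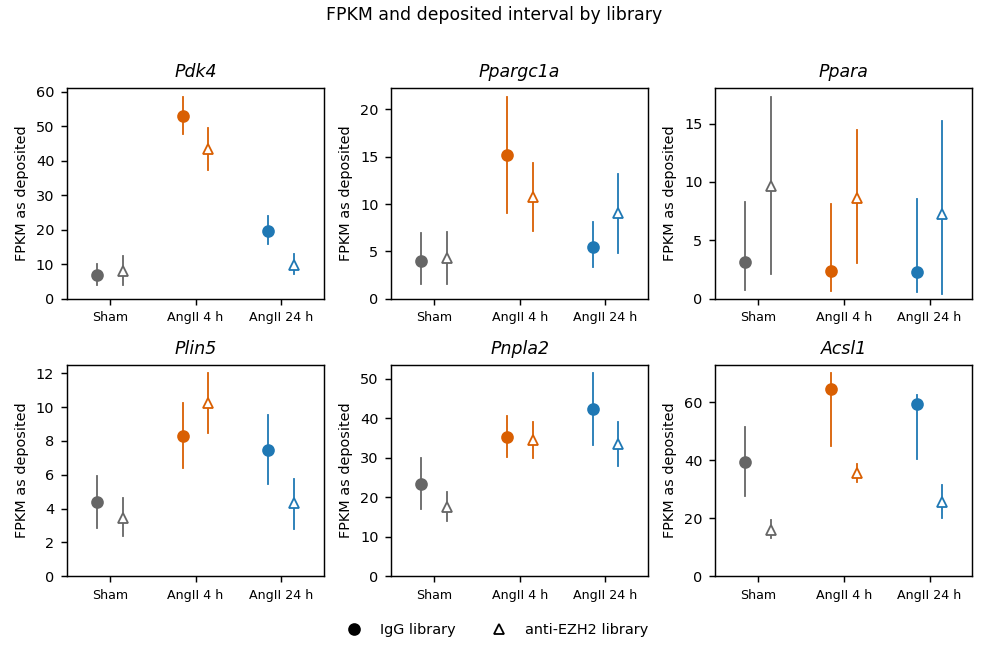
FPKM of Pdk4, Ppargc1a, Ppara, Plin5, Pnpla2 and Acsl1 in each treatment group, with filled circles for IgG, open triangles for anti-EZH2 and lines for the deposited interval of each library. Pdk4 is highest at AngII 4 h with both antibodies (53.0 and 43.3 FPKM), the anti-EZH2 points of Ppara lie above its IgG points and those of Acsl1 below, and the intervals of Ppara overlap.

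The 4 uptake genes include Fabp3, the most abundant single member, and all 4 were within 2-fold of the median gene in the comparisons with Sham. Fabp3, the fatty acid binding protein of heart muscle, was at 309, 442 and 353 FPKM with IgG and 247, 414 and 232 FPKM with anti-EZH2. Its difference at 4 h was 0.31 with IgG and 0.40 with anti-EZH2. A processed copy, Fabp3-ps1, has a row of its own at 99.8 to 170.5 FPKM and shares 29.2% of the 50-base windows of Fabp3, and the FPKM of Fabp3 lay outside its own deposited interval in all 6 libraries, so its level is uncertain. Lpl, the lipase that frees fatty acids from lipoproteins at the capillary wall, was at 173, 186 and 191 FPKM with IgG and 133, 165 and 116 FPKM with anti-EZH2. Cd36, the membrane fatty acid translocase, was at 86.1, 100.0 and 85.6 FPKM with IgG and 55.8, 95.9 and 65.9 FPKM with anti-EZH2. Neither was further than 0.44 from the median gene at 4 h. Slc27a1, a fatty acid transport protein, was much lower, at 2.59, 4.92 and 5.96 FPKM with IgG and 2.80, 4.60 and 4.92 FPKM with anti-EZH2, and it was above the median gene in all 4 comparisons with Sham, by 0.61 with IgG and 0.29 with anti-EZH2 at 4 h and by 0.83 with IgG and 0.73 with anti-EZH2 at 24 h. In the table of the whole series Slc27a1 was past 2-fold higher at 24 h, at 1.34 and 1.43, and Cd36 past 2-fold lower with IgG, at -1.37.

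Activation and entry into the mitochondrion depend on Acsl1 and the carnitine shuttle. Acsl1, the long-chain acyl-CoA synthetase of heart, was at 39.6, 64.7 and 59.4 FPKM with IgG and 16.0, 35.7 and 25.7 FPKM with anti-EZH2. Its differences were 0.50 with IgG and 0.79 with anti-EZH2 at 4 h and 0.35 with IgG and 0.67 with anti-EZH2 at 24 h, and every anti-EZH2 library was below the IgG library of its group. Cpt1b, the muscle carnitine palmitoyltransferase of the outer membrane and the step that malonyl-CoA inhibits, was at 40.7, 59.9 and 28.0 FPKM with IgG and 33.5, 64.7 and 50.02 FPKM with anti-EZH2. It was above the median gene by 0.35 with IgG and 0.60 with anti-EZH2 at 4 h, while at 24 h its differences were -0.76 with IgG and 0.58 with anti-EZH2. The low value is that of the AngII 24 h IgG library, and it is uncertain, because 81.4% of the exonic length of Cpt1b is also annotated to the overlapping gene Gm44502, which has no row in these tables, and because the table of the whole series lists 35.6 FPKM for that library against 18.3 FPKM for AngII 4 h IgG. Cpt1a, the liver form, was at 1.30, 2.09 and 2.17 FPKM with IgG and 1.03, 1.77 and 1.22 FPKM with anti-EZH2, far below Cpt1b in every library. Cpt2, the inner membrane enzyme that turns acylcarnitine back into acyl-CoA, was at 7.41, 16.3 and 17.3 FPKM with IgG and 9.18, 16.5 and 13.1 FPKM with anti-EZH2. It stood above the median gene by 0.88 with IgG and 0.47 with anti-EZH2 at 4 h and by 0.94 with IgG and 0.50 with anti-EZH2 at 24 h. Slc25a20, the carnitine-acylcarnitine translocase, was at 8.19, 14.5 and 17.0 FPKM with IgG and 8.31, 10.5 and 9.53 FPKM with anti-EZH2, and its relative differences were larger with IgG (0.59 at 4 h and 0.78 at 24 h) than with anti-EZH2 (-0.03 and 0.19).

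The 9 enzymes of the beta-oxidation spiral were all within 2-fold of the median gene in the comparisons with Sham. At 4 h, 8 of 9 were above the median gene with each antibody, with medians of 0.20 with IgG and 0.51 with anti-EZH2. The acyl-CoA dehydrogenases, which take the first pair of hydrogens, differ in the chain length they accept. Acadvl, for very long chains, was at 39.9, 51.8 and 54.5 FPKM with IgG and 23.1, 43.9 and 29.8 FPKM with anti-EZH2. Acadl, for long chains, was at 69.2, 96.3 and 85.9 FPKM with IgG and 57.9, 102 and 83.7 FPKM with anti-EZH2. Acadm, for medium chains, was the highest of the dehydrogenases at 111, 147 and 165 FPKM with IgG and 109, 169 and 79.2 FPKM with anti-EZH2, and its FPKM lay outside its own interval in 5 libraries. Acads, for short chains, was at 17.4, 15.5 and 16.8 FPKM with IgG and 14.2, 12.4 and 11.9 FPKM with anti-EZH2. Acads was the exception among them, below the median gene at -0.37 with IgG and -0.53 with anti-EZH2 at 4 h and at -0.28 with IgG and -0.23 with anti-EZH2 at 24 h. Dvl2 on the opposite strand shares 42.9% of the exonic length of Acadvl and was at 0.94 FPKM or less in every library.

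Hadha and Hadhb encode the subunits of the mitochondrial trifunctional protein, which carries out the later steps on long chains. Hadha was at 89.9, 117 and 141 FPKM with IgG and 44.9, 108 and 79.4 FPKM with anti-EZH2. Hadhb was at 109, 157 and 132 FPKM with IgG and 89.9, 167 and 121 FPKM with anti-EZH2. With anti-EZH2 Hadha was 0.92 above the median gene at 4 h and Hadhb 0.55, whereas with IgG they were 0.17 and 0.32, so the genes of this head-to-head pair had the same direction at 4 h with different sizes between the antibodies. The FPKM of Hadha lay outside its own interval in all 6 libraries. Echs1, the short-chain enoyl-CoA hydratase, was at 29.4, 39.8 and 50.9 FPKM with IgG and 33.1, 49.5 and 29.9 FPKM with anti-EZH2. Hadh, which oxidizes short and medium 3-hydroxyacyl-CoA, was at 38.0, 47.4 and 43.1 FPKM with IgG and 26.1, 47.4 and 32.0 FPKM with anti-EZH2. Acaa2, the thiolase that releases acetyl-CoA, was at 39.9, 64.3 and 64.9 FPKM with IgG and 29.3, 53.5 and 34.4 FPKM with anti-EZH2. Acaa2 was above the median gene in all 4 comparisons with Sham, by 0.24 to 0.52.

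Auxiliary enzymes rearrange the double bonds of unsaturated chains. Ech1, a dienoyl-CoA isomerase, was the most abundant of them at 122, 173 and 123 FPKM with IgG and 76.8, 141 and 90.1 FPKM with anti-EZH2. Eci1, an enoyl-CoA isomerase, was at 25.7, 36.0 and 33.9 FPKM with IgG and 18.5, 28.2 and 17.4 FPKM with anti-EZH2. Eci2, which does the same reaction in mitochondria and peroxisomes, was at 15.03, 18.6 and 19.3 FPKM with IgG and 7.20, 23.2 and 13.4 FPKM with anti-EZH2. Its Sham anti-EZH2 library was the lowest of the 6, and Eci2 was past 2-fold higher at 4 h with anti-EZH2 (1.28) but near the median gene with IgG (0.09). Decr1, the dienoyl-CoA reductase, was at 9.91, 15.5 and 14.9 FPKM with IgG and 8.81, 12.9 and 8.64 FPKM with anti-EZH2. Electrons from the dehydrogenases pass through the electron transfer flavoprotein, whose subunits are Etfa and Etfb, to its dehydrogenase Etfdh. Etfa was at 54.8, 59.0 and 72.4 FPKM with IgG and 38.8, 65.3 and 30.0 FPKM with anti-EZH2. Etfb was at 78.8, 104 and 109 FPKM with IgG and 60.1, 111 and 70.7 FPKM with anti-EZH2, and 53.0% of its exonic length is also annotated to Gm45233, which has no row here. Etfdh was at 24.9, 31.4 and 30.5 FPKM with IgG and 14.2, 28.2 and 17.0 FPKM with anti-EZH2. All 3 were above the median gene at 4 h with anti-EZH2, by 0.40 to 0.63, and Etfa was at -0.10 with IgG.

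Of the lipid droplet genes, Plin5 at 4 h and Pnpla2 at 24 h were past 1.5-fold higher with both antibodies. Plin5 coats the droplets of oxidative tissues and links them to mitochondria. It was at 4.40, 8.32 and 7.49 FPKM with IgG and 3.44, 10.3 and 4.34 FPKM with anti-EZH2. The AngII 4 h library was the highest with each antibody, with differences of 0.64 with IgG and 1.11 with anti-EZH2, and the intervals did not overlap those of Sham. The difference with anti-EZH2 fell short of 2-fold at a minimum of 5 FPKM (0.95) and in the table of the whole series (0.85). It also did so when centred on the cardiomyocyte markers (0.77). At 24 h the differences of Plin5 were 0.47 with IgG and 0.30 with anti-EZH2. Pnpla2, the adipose triglyceride lipase, which starts droplet lipolysis and supplies PPAR alpha ligands, was at 23.4, 35.3 and 42.3 FPKM with IgG and 17.6, 34.4 and 33.4 FPKM with anti-EZH2. Its differences were 0.38 with IgG and 0.61 with anti-EZH2 at 4 h and 0.61 with IgG and 0.92 with anti-EZH2 at 24 h, and both AngII libraries were above Sham with each antibody.

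Other targets and malonyl-CoA enzymes had low levels. Ucp3, a mitochondrial anion carrier that rises with fatty acid supply, was at 3.41, 3.73 and 1.97 FPKM with IgG and 1.43, 3.54 and 2.33 FPKM with anti-EZH2. Acot1, a cytosolic acyl-CoA thioesterase, was at 1.57, 1.19 and 2.41 FPKM with IgG and 0.840, 1.93 and 0.925 FPKM with anti-EZH2. Acot2, its mitochondrial counterpart, was at 4.98, 5.39 and 5.58 FPKM with IgG and 2.51, 5.16 and 2.10 FPKM with anti-EZH2. At 4 h these 3 were below the median gene with IgG (-0.50 to -0.09) and above it with anti-EZH2 (0.52 to 0.72). With IgG their intervals overlapped those of Sham, and as deposited Ucp3 and Acot2 were higher at 4 h than in Sham. Opposite directions between the antibodies were therefore not shown. Acot1 and Acot2 share sequence, 18.8% and 27.7% of their 50-base windows lying in other genes as well, so their separate levels are uncertain. Mlycd, which degrades malonyl-CoA and so relieves the block on Cpt1b, was at 4.92, 6.62 and 6.80 FPKM with IgG and 2.91, 6.18 and 2.28 FPKM with anti-EZH2. Acacb, which makes that malonyl-CoA at the mitochondrial surface, was at 3.85, 6.41 and 5.98 FPKM with IgG and 3.35, 4.08 and 4.13 FPKM with anti-EZH2. At 4 h Acacb was at 0.47 with IgG and -0.09 with anti-EZH2 and Mlycd at 0.19 with IgG and 0.63 with anti-EZH2.

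AngII for 24 h was compared with Sham in the same way. With IgG, 26 of 38 members were above the median gene, with a median of 0.17, and with anti-EZH2 27 were, with a median of 0.27. Past 2-fold with IgG was 1 member, Pdk4, higher, and 0 were lower, beside 10.6% of all genes higher and 11.7% lower. This call ended in the table of the whole series, where Pdk4 was at 0.94 and Slc27a1 and Pnpla2 were past 2-fold higher and Cd36 lower, and with centring on the cardiomyocyte markers, where Pdk4 was at 0.96. With anti-EZH2 it was Ppargc1a, 1 higher and 0 lower, beside 10.4% and 12.8%. At 1.00 Ppargc1a lay at the limit. It fell short of 2-fold with a pseudocount of 1 (0.93), in the table of the whole series (0.89) and under 4 other settings (0.79 to 0.996), and its deposited intervals overlapped. That table had 7 members past 2-fold higher and 0 lower with anti-EZH2, beside 15.3% and 15.7% of its genes. With both antibodies 0 members were past 2-fold, beside 1.66% of all genes higher and 2.7% lower, and at 1.5-fold Slc27a1 and Pnpla2 were higher in both, beside 5.99%. Above the median gene with both antibodies were 20 members, beside 27.6% of all genes, and below it were 5, Acads, Fabp3, Lpl, Ppara and Acot2, also beside 27.6%. The furthest below with IgG were Esrra (-0.90), Ucp3 (-0.89) and Cpt1b (-0.76), and with anti-EZH2 each of these 3 was above the median gene, at 0.33, 0.56 and 0.58. The furthest above with IgG after Pdk4 was Cpt2, at 0.94, and with anti-EZH2 the furthest above after Ppargc1a were Pnpla2 at 0.92 and Eci2 at 0.86. The anti-EZH2 values come from the library with 31.3% of FPKM on mitochondrially encoded genes, and the part of that share in them was not tested. The cardiomyocyte markers had medians of 0.23 with IgG and 0.22 with anti-EZH2, and centred on these cardiomyocyte markers the members' median was -0.063 with IgG and 0.051 with anti-EZH2. The endothelial markers had medians of -0.79 and -0.19, the fibroblast markers -0.36 and -0.26, the leukocyte markers -0.34 and -0.57 and the erythroid markers 0.38 and 0.24, and their part in the members' differences was not tested.

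AngII 24 h was compared with AngII 4 h to ask which of the early differences were smaller later. These libraries also enter the comparisons with Sham, so the values are not independent of them. Pdk4 was past 2-fold lower with both antibodies, 2.71-fold with IgG and 3.25-fold with anti-EZH2, 1 of 38 members beside 1.22% of all genes, and 0 members were past 2-fold higher in both, beside 1.69%. Ppargc1a was 2.68-fold lower with IgG, and its relative difference with anti-EZH2 was 0.14, a value near 0 whose sign changed with the setting (0.25 to -0.24). The third member past 2-fold lower with IgG was Cpt1b, at -1.11, which was at 0.29 in the table of the whole series. In all, 3 members were past 2-fold lower and 0 higher with IgG, beside 8.44% and 9.52% of all genes, and 1 lower and 0 higher with anti-EZH2, beside 10.0% and 11.4%. The members' medians were 0.00 and -0.14. Below the median gene with both antibodies were 13 members, among them Plin5, Ech1, Hadhb and Acsl1, and above it were 7, beside 27.1% of all genes on each side. Esrra was at -0.69 with IgG and 0.98 with anti-EZH2, and Ppargc1b was above the median gene with both, at 0.20 and 0.91. Mlycd was at -0.88 with anti-EZH2. In the table of the whole series 5 members were past 2-fold higher and 2 lower with anti-EZH2, beside 14.6% and 14.3% of its genes. The erythroid markers had medians of 1.07 with IgG and 0.67 with anti-EZH2, with 4 of 5 past 2-fold higher with IgG, the fibroblast markers 0.32 and 0.62, the leukocyte markers 0.38 and 0.45, the endothelial markers -0.13 and 0.04 and the cardiomyocyte markers -0.10 and -0.13. The anti-EZH2 values again use the library with 31.3% of FPKM on mitochondrially encoded genes, and the part of either in the members' values was not tested.

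Anti-EZH2 was compared with IgG to ask which member transcripts were recovered with EZH2 above the control precipitation. As a list the members lay near the median gene, with medians of -0.08 in Sham, 0.03 after 4 h and -0.10 after 24 h of AngII, and 13, 22 and 18 of 38 above it. The cardiomyocyte markers had medians of -0.07, 0.04 and -0.10. Past 2-fold in Sham were Ppara, higher, and Acsl1, lower, beside 11.2% of all genes higher and 8.91% lower. Acsl1 was at -0.74 in the table of the whole series and so within 2-fold there. At AngII 4 h it was Ppara alone, beside 8.15% higher and 7.12% lower. At AngII 24 h they were Ppara, Cpt1b, Ppargc1a and Esrra, 4 higher and 0 lower, beside 12.1% and 11.1%. These 4 rest on the anti-EZH2 library with 31.3% of FPKM on mitochondrially encoded genes, whose part in them was not tested, and the deposited intervals overlapped for all 4. Cpt1b also rests on its uncertain AngII 24 h IgG value, and it was at 0.28 in the table of the whole series. The count in that table was 3 higher and 0 lower of 34 members, beside 11.0% and 12.5% of its genes. Deposited FPKM before centring gave a different split at AngII 24 h, 1 higher and 6 lower, beside 5.6% and 24.6% of all genes.

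Ppara was past 2-fold higher with anti-EZH2 in all 3 groups, as were 0.77% of all genes. Its relative differences were 1.77 without AngII, 1.77 after 4 h and 2.00 after 24 h. Each anti-EZH2 library, at 7.26 to 9.66 FPKM, was above each IgG library, at 2.26 to 3.10 FPKM. If all signal lay on its longest transcript these levels would be 28 to 43 fragments with IgG and 111 to 220 with anti-EZH2. The deposited intervals were wide and overlapped in every group, for example 0.74 to 8.32 FPKM with IgG and 2.07 to 17.2 FPKM with anti-EZH2 in Sham. In limma, with treatment group as a block over the 3 pairs, the difference was 1.83 (SE 0.241) with an adjusted p = 0.685 over the 6880 genes, so Ppara did not pass the test. Acsl1 was lower in all 3 groups, at -1.01, -0.74 and -0.68. Its limma difference was -0.83 (SE 0.161), with an adjusted p = 0.685 as well. In the table of the whole series its difference at AngII 24 h was 0.02.

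Over the 3 groups limma called 0 of 38 members at an adjusted p below 0.05, beside 0.0145% of all genes, and 2 members, Ppara and Acsl1, had an unadjusted p below 0.05, beside 6.05%. Lower with anti-EZH2 in all 3 groups were 6 members (Acadvl, Eci1, Etfdh, Acaa2, Acsl1 and Lpl), beside 13.9% of all genes, and higher in all 3 were Cpt2, Acadl, Slc27a1 and Ppara, beside 13.7%. The other members past 2-fold were so only at AngII 24 h, with the library that stood apart. Cpt1b was at -0.01, 0.23 and 1.34, Ppargc1a at 0.35, -0.36 and 1.19, and Esrra at -0.11, -0.54 and 1.13. Mlycd was the furthest below at AngII 24 h, at -0.88, and Ucp3 was furthest below after Acsl1 in Sham, at -0.75. At AngII 4 h Acot1 was the furthest above after Ppara, at 0.64.

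**Figure D4:**
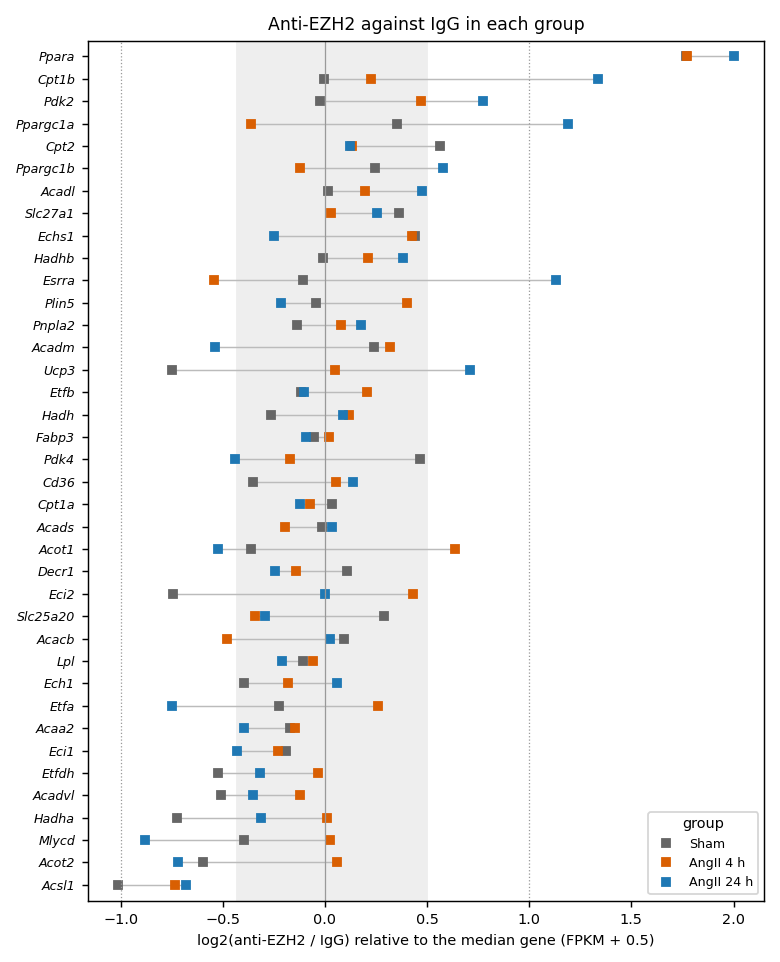
Relative log2 difference of anti-EZH2 against IgG for 38 genes in each of the 3 treatment groups, with a line joining the lowest and highest group, a grey band for the middle of all genes in Sham (lower to upper quartile) and dotted lines at 2-fold. Ppara lies at 1.77, 1.77 and 2.00 and Acsl1 at -1.01, -0.74 and -0.68, and most other genes cross 0 between groups.

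Genes that neighbour the members in metabolism were counted from 5 further lists. Of all genes, 9.69% were past 2-fold higher and 11.1% lower at 4 h with IgG, and 7.92% and 10.4% with anti-EZH2. Of 20 genes of peroxisomal and other oxidation 19 were found and 11 were tested, with medians at AngII 4 h of 0.02 with IgG and 0.17 with anti-EZH2. Acad9, an acyl-CoA dehydrogenase that also assembles respiratory complex I, was past 2-fold lower at 4 h with IgG (-1.34), and Acaa1a, a peroxisomal thiolase, higher with anti-EZH2 (1.21). Of 20 regulators outside the members 15 were tested, with medians of 0.21 and 0.36 at 4 h. With IgG Esrrg (1.16), a receptor related to Esrra, and Sirt3 (1.46), a mitochondrial deacetylase, were past 2-fold higher and the corepressor Nrip1 (-2.55) lower. With anti-EZH2 0 of the 15 were past 2-fold at 4 h, and Esrrg, Sirt3 and Nrip1 were at 0.55, 0.50 and 0.59. Glucose use genes, 18 of 20 tested, had medians of 0.33 and 0.34 at 4 h and 0.21 and 0.10 at 24 h. At 4 h with IgG 1 of them was past 2-fold higher and 1 lower. Mpc2, a subunit of the mitochondrial pyruvate carrier, was at 1.05 with IgG and 0.35 with anti-EZH2, and Hk1, a hexokinase, at -1.08 and 0.27. Lipid droplet and synthesis genes, 12 of 20 tested, had medians of -0.10 and 0.27 at 4 h. Past 2-fold at 4 h were 0 higher and 2 lower with IgG and 1 higher and 0 lower with anti-EZH2. The clock list, 10 of 15 tested, had medians of 0.07 and 0.16 at 4 h and 0.10 and 0.16 at 24 h. Past 2-fold at 24 h with IgG were 3 higher and 0 lower, beside 10.6% and 11.7% of all genes. With anti-EZH2 0 were higher and 2 lower, beside 10.4% and 12.8%. Among these, Per1 was higher at 24 h with IgG (1.31) and lower with anti-EZH2 (-1.12).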

How the data were processed

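Levels of precipitated RNA were read from 6 RIP-seq libraries of mouse left ventricle, 1 for each treatment group and antibody. None of them is an input library, so the values are not levels of total heart RNA. Per the labels, the authors made stranded libraries and mapped the reads to mm10 with TopHat2. The deposited tables hold FPKM per gene with a lower and an upper bound. The program that made them and its annotation are not given in the sources used here. A table of the whole series, also FPKM as the authors deposited it, served as an alternative.

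Protein-coding genes were taken from GENCODE M21 by Ensembl identifier (45137 matched), and 93 rows with a repeated identifier were summed. Genes with a mean FPKM of at least 1 were compared as log2(FPKM + 0.5), centred on the median gene, which understates the change of low genes. With 1 library a group no difference between treatments was tested. Anti-EZH2 was compared with IgG over the 3 groups with limma 3.58.1 (R 4.3.3), trend, treatment group as a block and Benjamini-Hochberg adjustment over all 6880 genes. The p-values rest on the spread between these 3 pairs, which limma moderates with that of all genes. Each pair is from a different treatment group, so this spread also holds any change of the antibody difference with treatment. In simulated data with 200 of 6880 genes changed 4-fold, calls past 2-fold with both antibodies recovered 78.0% of them and limma 93.0%. The simulated noise was set and not fitted to these libraries, so these shares give no recovery or error rate for the real data. The alternatives were pseudocounts of 0.1 and 1, no filter, a minimum of 5 FPKM, no centring, the other table, 1.5-fold, deposited intervals that do not overlap, and for limma no block and each pair left out.

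The members and all gene lists were chosen with earlier results of these data known. Every member is named, and other genes only from the lists (peroxisomal and other oxidation, regulators, lipid droplet and synthesis, glucose use, clock, and markers of cardiomyocytes, adipocytes, endothelium, fibroblasts, leukocytes and erythroid cells). The values of 1 gene of these lists are not reported here. Promoters are RefSeq's, on GRCm38.p6.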

Additional observations from a re-analysis of the deposited data

How the results depend on the processing

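Of the 121 alternative values for medians and counts, 85 were labelled as kept, 34 as moved and 2 as reversed. A median was kept if it lay within a rank interval over the members, and a count if it was equal or within 1.5-fold. Reversed means a change of sign where that interval excluded 0, so a median near 0 could change sign and still be kept. For anti-EZH2 against IgG at AngII 4 h the median of 0.026, with an interval of -0.12 to 0.13, became -0.089 as deposited. The reversals came with centring on the 8 cardiomyocyte markers, an alternative chosen after seeing the data: the median of members against Sham with IgG became -0.077 at 4 h and -0.063 at 24 h, with 0.16 and 0.051 for anti-EZH2 and 0.099 for AngII 24 h against 4 h with IgG. Without the filter on low values the medians were 0.40 (4 h, IgG), 0.38 (24 h, IgG), 0.69 (4 h, anti-EZH2), -0.36 (24 h against 4 h, anti-EZH2), -0.32 (anti-EZH2 against IgG, Sham) and -0.41 (the same, AngII 24 h). With FPKM as deposited and not centred they were 0.42, 0.40, 0.83, -0.52, -0.35 and -0.61. Both settings gave 2 members, Pdk4 and Ppargc1a, past 2-fold higher with both antibodies at 4 h. The share of all genes past 2-fold with both antibodies was counted only in the main setting, where it was 1.35% higher at 4 h. Anti-EZH2 against IgG in Sham gave 5 members past 2-fold without the filter, 2 higher and 3 lower, beside 6.01% and 9.53% of all genes. As deposited it gave 4, as 1 higher and 3 lower, beside 7.47% and 14.9%. With a pseudocount of 0.1 it gave 1 higher and 0 lower, beside 14.4% and 12.4%. A minimum of 5 FPKM also gave 1 higher and 0 lower, beside 7.13% and 5.59%. With intervals apart it gave 0 higher and 1 lower, beside 0.93% and 1.37%. As deposited the count was 7 at AngII 24 h, as 1 higher and 6 lower, beside 5.6% and 24.6%. With intervals apart it was 0 at AngII 4 h, beside 0.916% of all genes higher and 0.872% lower. At AngII 24 h it was also 0, beside 0.233% and 2.46%. At 1.5-fold the counts were 6, 3 and 10 for the antibody comparison, as 1 higher and 5 lower in Sham (21.9% and 19.7% of all genes), 2 and 1 at 4 h (18.0% and 16.2%) and 6 and 4 at 24 h (22.4% and 21.4%). Higher with both antibodies at 1.5-fold were 3 members at 4 h and 2 at 24 h, beside 4.81% and 5.99% of all genes. In the table of the whole series, with 34 members, the median was 0.081 (24 h against 4 h, IgG) and 0.45 (24 h against Sham, anti-EZH2). Past 2-fold with both antibodies were 2 members higher at 24 h, Slc27a1 and Pnpla2, and 2 lower at 24 h against 4 h, Cd36 and Pdk4. The share of all genes with both antibodies was not counted in that table. With a single antibody, 13.9% (IgG) and 15.3% (anti-EZH2) of its genes were past 2-fold higher at 24 h. Past 2-fold lower at 24 h against 4 h were 11.9% and 14.3%. Cpt1b at 24 h against 4 h with IgG was 0.29 in that table instead of -1.11. The cause was not tested. As deposited, the members past 2-fold were 7 higher and 0 lower at 4 h with anti-EZH2, beside 15.9% and 5.73% of all genes, and 0 higher and 6 lower at 24 h against 4 h, beside 6.21% and 19.0%.

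In limma 0 members were called under every setting run, with treatment group as a block, with no group block, and with each pair left out (0 to 0). The adjusted p of Ppara ran from 0.410 to 0.900. Pdk4 at 4 h stayed past 2-fold under each setting, the cardiomyocyte centring included, at 2.34 to 2.84 with IgG and 1.67 to 2.35 with anti-EZH2. No paired analysis by replicate number was possible because each group has a single library per antibody. Depth limits the low members, such as Acot1 at 11 to 37 fragments if all signal lay on its longest transcript.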
